A study of Gallus gallus with 2 samples.

Results

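The receptors *KIT*, *PDGFRA*, *PDGFRB*, *CSF1R* and *FLT3* belong to the class III receptor tyrosine kinases, and *KITLG*, *PDGFA*, *PDGFB*, *PDGFC* and *PDGFD* encode ligands of 3 of them. These 10 genes were chosen by their symbol in the table of 22853 loci, in which 11 loci carry one of the symbols. The expression of each gene was compared between back skin of white-skinned (WS) and black-skinned (BS) Lueyang chickens, to describe the receptor family in the 2 skin colors. All birds were 16-week-old females of the Lueyang strain, and the samples were pieces of left back skin, each 8 mm across. For each skin color, RNA of 3 of the 5 birds sampled was pooled into 1 library, so the design has 2 libraries and no replicates. No value below has a replicate error, and no difference between the skin colors could be tested. A whole piece of skin was used, so fewer cells of a type and less RNA per cell cannot be told apart.

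Class III receptors have immunoglobulin-like domains outside the cell and a kinase domain that is split by an insert. KIT binds the product of *KITLG* and is needed for the survival and migration of melanocyte precursors, and it also acts in mast cells, germ cells and blood stem cells in mammals. The PDGF receptors act in connective tissue and vessel walls, where *PDGFRA* is typical of fibroblasts and *PDGFRB* of pericytes. CSF1R is the growth factor receptor of macrophages, and FLT3 acts in dendritic cells and in blood progenitors.

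Expression was given as FPKM, the fragments counted over a gene scaled to the length of its exons and to the mapped reads of the library, so levels can be compared between genes within a library. The fold change is BS over WS, written as log2((BS + 1)/(WS + 1)), where 1 FPKM is added to each value. The addition pulls the fold change of genes near 0 toward 0, so the plain ratio of FPKM is given too. The table holds no counts of reads per locus, and the counting error of a value was therefore not estimated.

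All 10 genes reached at least 1 FPKM in the higher library, the limit set for comparison, as did 15020 loci of the table. On the scale with 1 FPKM added, 0 of the 10 were 2-fold or more higher in BS and 0 were lower by that margin. Among all 15020 loci, 10.3% were 2-fold apart, 4.61% (693 loci) higher and 5.69% (855 loci) lower in BS. With the totals without the 50 most abundant loci set equal, 873 were higher and 682 lower, since that scaling moved the median log2 fold change of all loci from -0.06 to 0.05. Among the loci that carry a gene symbol, the share was 5.02%. By the plain ratio, 2 of the 10 genes were at least 2-fold apart, *KIT* with more expression in BS and *FLT3* with more in WS, beside 8.43% of the loci with a symbol. The other 8 genes were within 2-fold by either measure. With 10 genes, these counts are too small to be read as differing from those shares. With 5 genes higher and 5 lower in BS, the median log2 fold change of the 10 was 0.06, beside -0.06 over all loci and -0.04 over the loci with a symbol.

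**Figure D1:**
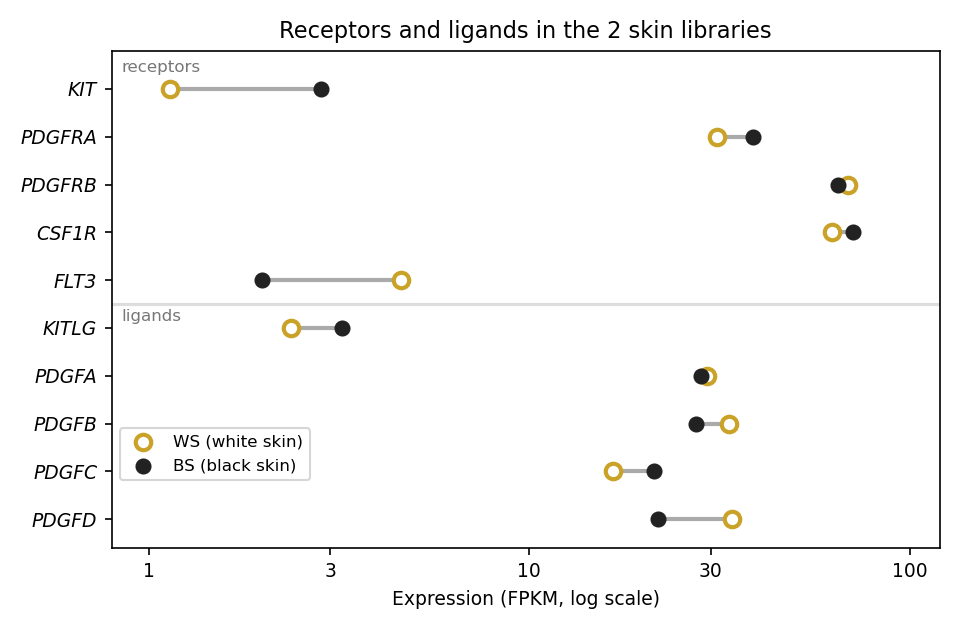
Expression of the 10 genes in FPKM (x axis, log scale) in the white skin library (open circles) and the black skin library (filled circles), receptors above and ligands below, with 1 pooled library per color and no error bars. *KIT* and *FLT3* have the longest lines, in opposite directions, and with *KITLG* they are the 3 genes under 5 FPKM in both libraries.

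*KIT* was the least abundant receptor in WS, at 1.14 FPKM, and stood at 2.84 FPKM in BS. BS was thus 2.50-fold higher by the plain ratio, and the log2 fold change was 0.85. The choice of the added value decided on which side of 2-fold *KIT* fell, since the log2 fold change was 1.25 with 0.1 FPKM added and 0.35 with 5 FPKM added. With 0.1 FPKM added, *KIT* and *FLT3* were past 2-fold, as were 7.89% of the loci with a symbol. Low values also scatter more. Of the 1407 other loci with a symbol and a mean within 2-fold of that of *KIT*, 11.2% had a log2 fold change at least as large in either direction, and 7.89% had one at least as large toward BS. In the deposited coordinates, *KIT* is locus XLOC_015862 on chromosome 4 from 67140503 to 67193300.

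*FLT3* had a log2 fold change of -0.91. It stood at 4.61 FPKM in WS against 1.99 FPKM in BS, so WS was 2.32-fold higher by the plain ratio. With 0.1 FPKM added the log2 fold change was -1.17, and with 5 FPKM added it was -0.46. Of the 2022 other loci with a symbol at a like level, 8.51% were at least as far apart, and 2.77% were at least as far apart toward WS. *FLT3* is locus XLOC_001106 on chromosome 1 from 180312045 to 180346991. *KIT* and *FLT3* exchanged places between the libraries, *KIT* being the lowest of the 5 receptors in WS and *FLT3* the lowest in BS.

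*PDGFRB* and *CSF1R* were the most abundant receptors in both libraries. *PDGFRB* stood at 68.8 FPKM in WS against 64.8 FPKM in BS, with a log2 fold change of -0.08 as deposited and 0.05 when the totals without the 50 most abundant loci were set equal, so no direction is given. *CSF1R* stood at 62.6 FPKM in WS against 71.1 FPKM in BS, a log2 fold change of 0.18. The order of the pair differed between the libraries, with *CSF1R* at 0.911 times the level of *PDGFRB* in WS and at 1.10 times in BS. Differences of this size were common, since 62.3% of loci of like level lay at least as far apart as *CSF1R* and 80.2% at least as far apart as *PDGFRB*.

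*PDGFRA*, on chromosome 4 from 67267653 to 67302392, lay between these 2 receptors and the low pair, at 31.2 FPKM in WS against 38.7 FPKM in BS. The log2 fold change was 0.30, and 38.9% of loci of like level were at least as far apart. *PDGFRA* stood at 27.4 times the level of *KIT* in WS and at 13.6 times in BS, although the genes are neighbors on chromosome 4. Of the summed FPKM of the 5 receptors, *PDGFRB* made up 40.8% in WS and 36.1% in BS, *CSF1R* 37.2% and 39.6%, and *PDGFRA* 18.5% and 21.6%. The remaining shares were 2.74% and 1.11% for *FLT3* and 0.676% and 1.58% for *KIT*. The receptors spanned a 60.4-fold range of expression in WS and a 35.7-fold range in BS.

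**Figure D2:**
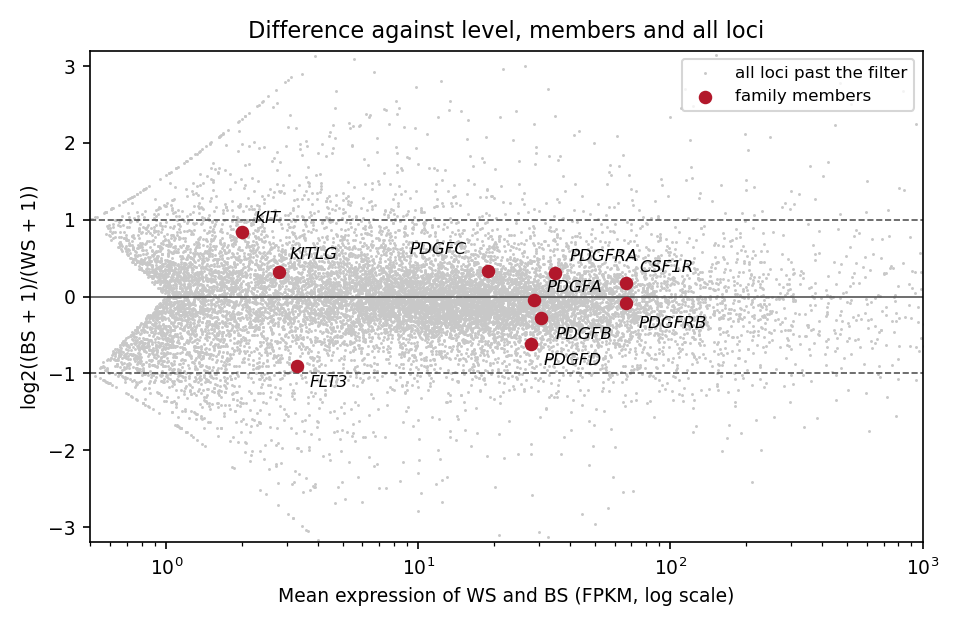
The log2 fold change, log2((BS + 1)/(WS + 1)), against the mean FPKM of the 2 libraries (log scale) for the 10 genes (red, named) and 14674 of the 15020 loci (gray), 346 others lying outside the axes. Dashed lines mark 2-fold, and all 10 genes lie between them, *KIT* (0.85) and *FLT3* (-0.91) nearest to the lines.

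*KITLG*, the gene of the KIT ligand, was the least abundant ligand in both libraries, at 2.37 FPKM in WS against 3.22 FPKM in BS. The plain ratio was 1.36-fold toward BS, the log2 fold change was 0.32, and 44.3% of loci of like level were at least as far apart. The FPKM of *KITLG* was 2.08 times that of *KIT* in WS and 1.13 times in BS. As deposited, both values were higher in BS, and the ratio of the receptor was the larger, but a difference like that of *KITLG* was common at its level. In the paper's qPCR of individual birds, *KIT* expression differed significantly between the skin colors, and *KITLG* expression did not. From RNA-seq, with a 2-fold limit and a p value, the paper also called *KIT* significantly higher in black skin, and it states that the qPCR matched. By the plain ratio used here *KIT* was past 2-fold toward BS too, and with 1 FPKM added it was not. *KITLG* is locus XLOC_001465 on chromosome 1 from 44851769 to 44909413.

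All 4 PDGF ligands were above *KITLG* in both libraries, and *PDGFD* differed most among them. *PDGFD*, whose product binds the PDGF beta receptor in mammals after a protease removes its CUB domain, stood at 34.1 FPKM in WS against 21.8 FPKM in BS. WS was 1.56-fold higher, with a log2 fold change of -0.62, and 11.7% of 3397 loci of like level were at least as far apart. *PDGFC*, whose product is cut in the same way and binds the alpha receptor, went in the other direction, with 16.6 FPKM in WS, 21.3 FPKM in BS and a log2 fold change of 0.34. *PDGFD* made up the largest share of the summed FPKM of the 4 PDGF ligands in WS, while in BS its share, 22.1%, was below those of *PDGFA* (28.5%) and *PDGFB* (27.8%). *PDGFC* made up 14.6% of the sum in WS and 21.5% in BS. In the deposited coordinates *PDGFD* is on chromosome 1 from 186235896 to 186378377.

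*PDGFB*, which endothelial cells release to recruit pericytes in mice, stood at 33.5 FPKM in WS against 27.5 FPKM in BS, a log2 fold change of -0.28. *PDGFA*, a ligand of the alpha receptor that epithelia produce in mice, stood at 29.3 FPKM in WS against 28.2 FPKM in BS. Its log2 fold change was -0.05 as deposited and 0.08 with the totals without the 50 most abundant loci set equal, so no direction is given for it. At a like level, 42.1% of loci were at least as far apart as *PDGFB* and 87.4% at least as far apart as *PDGFA*.

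The 4 PDGF ligands summed to 113.5 FPKM in WS against 98.9 FPKM in BS, and the 2 PDGF receptors to 99.9 FPKM and 103.5 FPKM. The ligand sum was 1.14 times the receptor sum in WS and 0.956 times in BS. The ratio of *PDGFRB* to *PDGFRA* was 2.20 in WS and 1.67 in BS.

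**Figure D3:**
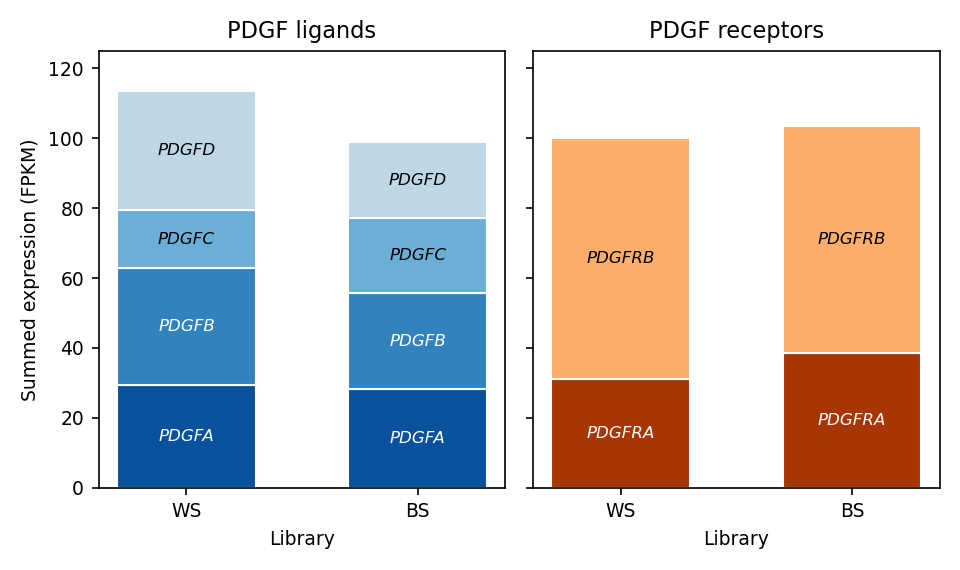
Summed expression in FPKM of the 4 PDGF ligands (left) and the 2 PDGF receptors (right) in the WS and BS libraries, stacked by gene, with 1 pooled library per bar. The ligand bar is 113.5 FPKM in WS against 98.9 FPKM in BS, and the *PDGFD* segment is the one that differs most.

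Some receptor genes of this family lie next to each other, and some lie near genes of the related VEGF receptors. On chromosome 4 the order was *KDR*, *KIT*, *PDGFRA*, with 56.6 kb between *KDR*, which encodes a VEGF receptor, and *KIT*, and 74.4 kb between *KIT* and *PDGFRA*. All 3 were higher in BS, *KDR* by 1.49-fold (4.81 FPKM in WS, 7.18 FPKM in BS), *KIT* by 2.50-fold and *PDGFRA* by 1.24-fold as plain ratios. A difference like that of *PDGFRA* was common, with 38.9% of loci of like level at least as far apart. The share of all loci higher in BS by any margin was not computed, and a shared change of these neighbors was not tested. On the far side of *KIT* from *PDGFRA*, *SRD5A3*, an enzyme gene beyond *KDR*, was at 97.8 FPKM in WS against 84.0 FPKM in BS, and beyond *PDGFRA* the gene *CHIC2* was at 15.6 FPKM and 14.6 FPKM. The locus ENSGALG00000013930 begins only 42 bp after *PDGFRA* and went the other way, with 6.82 FPKM in WS against 3.26 FPKM in BS.

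*PDGFRB* and *CSF1R* lie 1652 bp apart on chromosome 13, and *HMGXB3* begins 1037 bp after *CSF1R*. *PDGFRB* spans 13328816 to 13354820 and *CSF1R* 13356472 to 13374319. *HMGXB3*, at 8.29 FPKM in WS against 6.61 FPKM in BS, was far below both receptors. The sources used here do not say that the library kept strand, so reads running past the end of one of these genes cannot be told from those of its neighbor. *FLT3* lies 87.6 kb from *FLT1*, another VEGF receptor gene, with *PAN3* between them. *FLT1* was at 4.86 FPKM in WS against 5.37 FPKM in BS and *PAN3* at 17.8 FPKM and 14.6 FPKM, so neither showed the 2.32-fold ratio of *FLT3*. Around the ligand genes, *TMTC3* next to *KITLG* was at 10.3 FPKM and 9.26 FPKM, *PRKAR1B* next to *PDGFA* at 18.0 FPKM and 24.2 FPKM, and *CBX7* next to *PDGFB* at 26.3 FPKM and 19.6 FPKM. None of the 10 loci overlapped a locus of another gene. *PDGFC* alone had a second locus, in the same interval from 22265493 to 22389091 on chromosome 4, with 1.11 FPKM in WS against 0.798 FPKM in BS. Its sum over both loci had a log2 fold change of 0.30.

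Of the VEGF ligands and receptors and their coreceptors, which are the closest relatives of the PDGF system, 8 of 10 had a locus of their own, and none was 2-fold apart. Expression was higher in BS for 7 of the 8, with a median log2 fold change of 0.47, beside -0.04 over the loci with a symbol. The share of all loci higher in BS by any margin was not computed, for these genes or for the lists below. *FLT4*, the VEGF receptor of lymphatic vessels, had the largest value (0.74, from 4.99 FPKM in WS to 8.97 FPKM in BS). It was followed by the coreceptors *NRP2* (0.68) and *NRP1* (0.57), and *NRP1* was also the most abundant, at 40.0 FPKM and 59.9 FPKM. The exception was *FIGF*, the gene of VEGF-D (-0.16).

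Of 38 adaptors and effectors acting below the receptors, 31 had a locus of their own, and 28 could be compared. All 28 were within 2-fold, a count near the background, in which 5.02% of the loci with a symbol were 2-fold apart. Their log2 fold changes ran from -0.53 for *PIK3CB*, a catalytic subunit of PI3 kinase, to 0.49 for the Src family kinase *LYN*, with a median of 0.07. The adaptor *SHC1* was the most abundant, at 339 FPKM in WS against 271 FPKM in BS. The other 3, *PIK3R1*, *RASA1* and *JAK2*, were listed at 0 in both libraries. They lie on chromosome Z, where all 791 loci were listed at 0, so their values are not taken as absence of the transcripts.

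Of 22 genes that restrain receptor signaling, 16 were measured, with a median log2 fold change of 0.06. Here and in the other lists genes were matched by exact symbol. A gene listed under another name was therefore counted as having no locus of its own. *GRB10*, an adaptor that binds activated receptors, was the one 2-fold higher in BS, at 3.35 FPKM in WS against 7.95 FPKM in BS (1.04), where another locus overlaps it. It was short of 2-fold with 5 FPKM added. The other 15 were within 2-fold on the scale with 1 FPKM added. *SPRY4*, which encodes an inhibitor of Ras signaling, was at 0.590 FPKM in WS against 1.34 FPKM in BS, a plain ratio of 2.27, and with 0.1 FPKM added 2 of the 16 genes were 2-fold higher.

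Among 12 other ligands, binding proteins and proteases that process the ligands, 8 were measured and none was 2-fold apart with 1 FPKM added. *SPARC*, a matrix protein that binds PDGF-B in mammals, was the most abundant, at 12934 FPKM in WS against 6636 FPKM in BS (-0.96). *PDGFRL*, a gene related to the PDGF receptors, was at 162 FPKM and 91.5 FPKM (-0.82). *A2M*, the gene of a protease inhibitor that binds PDGF in mammals, was at 0.749 FPKM and 1.86 FPKM, a plain ratio of 2.49, and was the 1 gene of the 8 that was 2-fold higher with 0.1 FPKM added. The median of the 8 was -0.38. *CSF1* and *IL34*, which encode the ligands of CSF1R, and *FLT3LG*, the ligand gene of FLT3, had no locus of their own symbol. They could not be compared, which is not taken as absence of the transcripts.

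Markers of cell types that carry these receptors were set beside each receptor, with the member itself left out of its list. The ligands *PDGFB*, *PDGFA* and *KITLG* were set beside other lists. Over all loci, 4.61% were 2-fold or more higher in BS and 5.69% lower, the shares set beside the counts below. All genes of the lists carry a symbol, and loci with a symbol were less often 2-fold apart (5.02%) than all loci (10.3%). The shares of loci with a symbol by direction were not computed. The lists were chosen with earlier results of these data known, so those counts are descriptive. Beside *KIT*, 13 of 17 melanocyte markers were measured, 8 of them 2-fold or more higher in BS and 0 lower by that margin. The 8 were *TYR*, *DCT*, *OCA2*, *SOX10*, *EDNRB2*, *MLPH*, *GPR143* and *TRPM1*, and the median of the 13 was 1.29. With 5 FPKM added, 5 of the 13 were 2-fold higher and the median was 0.63. The defining markers *TYRP1*, *PMEL*, *MLANA* and *SLC45A2* were listed at 0 in both libraries, which is not taken as absence of the transcripts. *PMEL* is on the sequence E22C19W28_E50C23 and the other 3 are on chromosome Z. For *TYRP1*, the paper reports no detection in either skin color and describes its RNA-seq and qPCR results as alike. The summed level of the 13 was 104 FPKM in WS against 215 FPKM in BS. The FPKM of *KIT* was 1.09% of this sum in WS and 1.32% in BS. The regulator *MITF* was at 30.4 FPKM in WS against 26.9 FPKM in BS.

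Mast cells also carry KIT, and 3 of 9 mast cell markers were measured. The prostaglandin D synthase gene *HPGDS* was at 4.13 FPKM in WS against 39.0 FPKM in BS, a ratio of 9.45. The granule proteoglycan gene *SRGN*, which another locus overlaps, was at 8.02 FPKM and 20.1 FPKM, and *GATA2* at 7.14 FPKM and 8.02 FPKM. *HPGDS* and *SRGN* are active in other blood cells too. The histamine enzyme gene *HDC* was under 1 FPKM in both libraries, at 0.235 FPKM and 0.534 FPKM. The summed level of the 3 was 19.3 FPKM in WS against 67.1 FPKM in BS, with *HPGDS* the largest part in BS. The markers *CPA3*, *FCER1A*, *MS4A2*, *CMA1* and *TPSAB1* had no locus of their own symbol, which is not taken as absence of the transcripts. A list of 3 genes does not describe the cell type. The part of melanocytes and of mast cells in the difference of *KIT* was not tested.

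Beside *CSF1R*, 11 of 15 macrophage markers were measured, 9 of them with higher values in BS. Their median was 0.32, beside -0.04 over the loci with a symbol. *CYBB*, a subunit of the phagocyte oxidase (2.55 FPKM in WS, 7.50 FPKM in BS), and the scavenger receptor gene *MARCO* (9.79 FPKM and 21.8 FPKM) were 2-fold higher, and neither was with 5 FPKM added. *LY86*, at 137 FPKM and 90.8 FPKM, had the lowest value (-0.59). The summed level was 707 FPKM in WS against 790 FPKM in BS, and *CSF1R* stood at 8.86% and 9.0% of it. The part of macrophage content in the value of *CSF1R* was not tested.

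Beside *FLT3*, only 2 of 7 dendritic cell markers were measured, *IRF8* at 46.6 FPKM in WS against 40.8 FPKM in BS, and *BATF3* at 2.32 FPKM and 3.07 FPKM. Neither had the ratio of *FLT3*, and a list of 2 genes does not describe the cell type. Its marker *ZNF366* is on chromosome Z and was listed at 0. *IRF8* is also counted among the macrophage markers.

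Beside *PDGFRA*, 10 of 14 fibroblast markers were measured, with a median of 0.09. The collagen gene *COL1A2*, at 6495 FPKM in WS against 2852 FPKM in BS (-1.19), was 2-fold lower in BS, although another locus overlaps it, and no marker was higher by that margin. The summed level was 9942 FPKM in WS against 6178 FPKM in BS, with *COL1A2* the largest part in both libraries. *PDGFRA* was 1.24-fold higher in BS. Beside *PDGFRB*, 7 of 12 pericyte and vascular smooth muscle markers were measured, and 6 of the 7 had higher values in BS. Their median was 0.38, beside -0.04 over the loci with a symbol. *MYH11*, the smooth muscle myosin, was 2-fold higher, at 122 FPKM and 262 FPKM, and another locus overlaps it too. *RGS5*, a pericyte marker, was at 276 FPKM and 338 FPKM (0.29). Their part in the values of the 2 receptors was not tested.

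The ligands *PDGFB*, *PDGFA* and *KITLG* were each set beside the list of a cell type taken here as a source. No list was set beside *PDGFC* or *PDGFD*. Which cells produce the ligands in this skin was not tested. Beside *PDGFB*, 9 of 12 endothelial markers were measured. None of the 9 was 2-fold apart, and 8 had higher values in BS. Their median was 0.30, beside -0.04 over the loci with a symbol and -0.28 for *PDGFB*. *VWF* was the most abundant, at 88.0 FPKM and 118 FPKM, and *EGFL7* was the farthest apart, at 27.9 FPKM and 40.9 FPKM (0.54). *KDR* and *FLT1* are counted both in this list and among the VEGF relatives. Beside *PDGFA* and *KITLG*, all 12 keratinocyte markers had lower values in BS, 7 of them by at least 2-fold (*TP63*, *DSP*, *PKP3*, *CDH1*, *LAMB3*, *EVPL* and *PPL*), with a median of -1.04. Over all loci, 5.69% were lower by that margin. With the totals without the 50 most abundant loci set equal, 1 of the 12 was 2-fold lower and the median was -0.90. The summed level was 3440 FPKM in WS against 1914 FPKM in BS. *KRT5* and *KRT75*, on the same sequence as *PMEL*, were listed at 0 in both libraries, which is not taken as absence of the transcripts. *PDGFA* (-0.05) and *KITLG* (0.32) thus lay above every measured gene of this list, whose values ran from -1.21 to -0.45. The part of keratinocyte content in the ligand values was not tested.

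**Figure D4:**
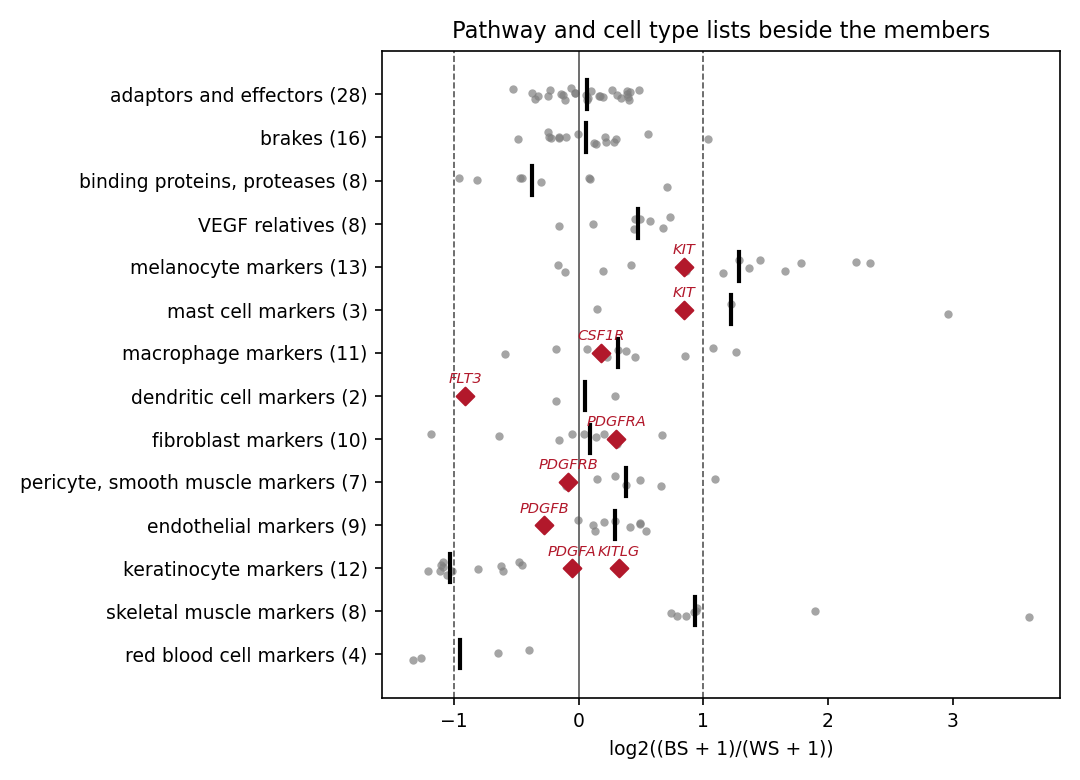
The log2 fold change, log2((BS + 1)/(WS + 1)), of each measured gene (gray points) of the 14 lists, with the number of genes in brackets, the list median as a black bar, and the receptor or ligand set beside the list as a red diamond. Dashed lines mark 2-fold. *KIT* (0.85) lies below the melanocyte median (1.29), and *FLT3* (-0.91) lies away from the dendritic cell markers, while *PDGFA* and *KITLG* lie above the keratinocyte markers.

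Skeletal muscle and red blood cell markers also differed between the 2 pieces of skin. Of 13 skeletal muscle markers, 8 were measured. All 8 had higher values in BS (median 0.93), *MYH1* and *PVALB* by at least 2-fold. *PVALB* was low in WS, at 0.240 FPKM against 3.61 FPKM in BS. The count of 2 genes was 1 with 5 FPKM added or at a minimum of 5 FPKM. With the totals without the 50 most abundant loci set equal, the count was 5. Of 8 red blood cell markers, 4 were measured. All 4 had lower values in BS (median -0.95), *HBAA* and *HBAD* by at least 2-fold. Over all loci, 4.61% were 2-fold higher and 5.69% lower in BS. The part of these tissues in the values of the 10 genes was not tested.

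**Figure D5:**
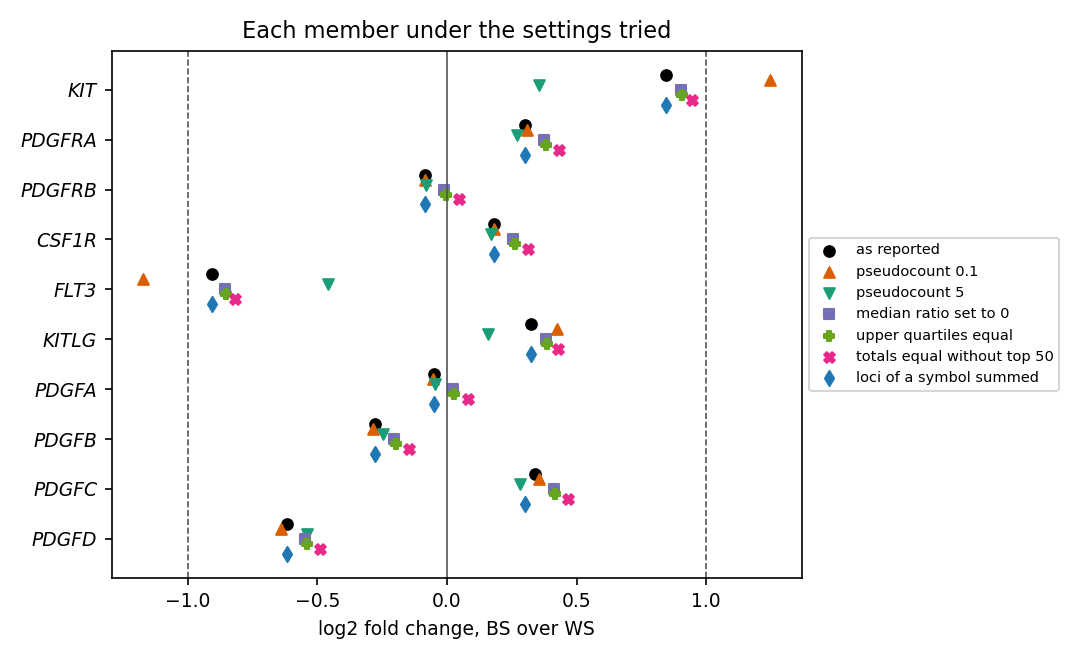
The log2 fold change of BS over WS for each of the 10 genes as reported (black circles) and under other added values, scalings of the libraries, or sums over the loci of a symbol. Dashed lines mark 2-fold. *KIT* (0.35 to 1.25) and *FLT3* (-1.17 to -0.46) move most with the added value, and *PDGFRB* and *PDGFA* are the genes whose sign changes.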

How the data were processed

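RNA-Seq was run on 1 pooled library of skin RNA per skin color. The deposited values are FPKM, computed by the authors for each locus in both libraries. Cuffdiff and galGal4 appear in the submitters' processing notes, while the paper's methods name Bowtie and another reference file, so coordinates are given as deposited and their build is unsettled. The authors' own columns of fold changes, test statistics, p values and q values were not used.

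Of 22853 loci, 5 with a failed estimate were removed. For a symbol with several loci, the locus with the highest mean was kept. Loci under 1 FPKM in the higher library were not compared. Loci of like level are those with a gene symbol and a mean within 2-fold. With 1 library per color no test was made. The fold change and count steps were run on simulated data with planted changes larger than 2-fold, at loci with a mean of at least 5 FPKM. That run does not cover the low levels of *KIT*, *FLT3* and *KITLG*. The 10 genes, the 14 lists and the settings were chosen with earlier results of these data known. All members were named, and of each list the genes at least 2-fold apart or, failing these, the most abundant and the farthest apart, with defining markers listed at 0 and *MITF*, *FIGF*, *SPRY4*, *A2M*, *HDC*, *GATA2*, *RGS5* and *LY86* named once their values were known. The alternatives tried were other added values, filters and scalings, and sums over loci. Python 3.11.15, pandas 2.3.3, numpy 2.4.6 and matplotlib 3.10.9 were used.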

Additional observations from a re-analysis of the deposited data

How the results depend on the processing

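Under 8 alternatives, 8 of the 10 genes kept the sign of their log2 fold change wherever they were compared, and *PDGFRB* and *PDGFA* did not. Most of this was fixed in advance. Other added values and filters cannot change a sign, and sums over loci concern only *PDGFC*. The scalings all raised BS, so under them only a gene lower in BS as reported could change sign. With 0.1 FPKM added, 1 gene was at least 2-fold higher in BS (*KIT*) and 1 at least 2-fold lower (*FLT3*), against 0 and 0 with 1 FPKM added, and every other setting gave 0 and 0. The number of genes higher in BS by any margin was 5 as reported, 6 with the median log2 ratio set to 0 or the upper quartiles equal, 7 with the totals without the 50 most abundant loci equal, and 3 at a minimum of 5 FPKM, where 7 of the 10 genes remained and *KIT*, *KITLG* and *FLT3* could not be compared. The scalings put a log2 factor of 0.08, 0.08 and 0.13 on BS, respectively. With the 50 most abundant loci included, the FPKM of all loci summed to 3.58e+06 in WS against 2.24e+06 in BS. Setting these full totals equal was not tried. Over the 14 lists, 26 genes other than the 10 were at least 2-fold apart, and 17 were with 5 FPKM added. Among all loci, 1198 were 2-fold higher and 1559 lower in BS with 0.1 FPKM added, 287 and 306 with 5 FPKM added, and 447 and 487 at a minimum of 5 FPKM, against 693 and 855 as reported. No paired analysis was possible because each skin color has 1 library. The paper lists similar totals of aligned reads for the libraries, but the tables used here give no counts of reads per locus. How far depth limits the low values of *KIT*, *FLT3* and *KITLG* was therefore not estimated.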
